A study of Mus musculus with 14 samples.

Results

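The comparison described here sets 2 groups of mouse late 2-cell embryos side by side, both of which served as controls: WT embryos, which saw no inhibitor of lactate dehydrogenase, and G&N embryos, which were cultured with the inhibitor Gne140, nicotinamide mononucleotide (NMN) and lactate. The members were taken by their labels, and they are 4 of the 14 RNA-seq libraries of the series, 2 for each group, made from 5 pooled embryos each of superovulated young adult ICR mice and collected at 54 h after hCG. The G&N medium held 5 µM Gne140, 50 µM NMN and 10 mM lactate from 24 h after hCG. The standard medium of the study also holds 10 mM lactate, and its removal is not described for WT. Per the study's methods, the WT embryos had been injected as zygotes, at 14 h after hCG, with mRNA for wild-type histone H3, and were the control of embryos injected with the lysine 18 mutant H3K18R. The G&N embryos were the lactate-replete control of embryos without lactate (G&N-L), and no injection is described for them. Inhibitor, NMN, injection and experiment therefore all differ between the groups, and their parts in any difference below cannot be told apart. The remaining libraries are late 2-cell G&N-L and H3K18R embryos, G&N-L embryos given lactyl-CoA by injection per the study (G&N-L+Lac-CoA), and embryos of the G&N-L and G&N groups at the early 2-cell stage, 30 h after hCG, with 2 libraries each.

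Lactate dehydrogenase interconverts lactate and pyruvate while NAD is reduced or oxidised, and Gne140 inhibits its A and B forms. NMN is a precursor of NAD and was supplied together with the inhibitor. The mouse embryo starts with RNA stored by the oocyte, and around the 2-cell stage this store is degraded while the embryonic genome is switched on in a minor and then a major wave. A late 2-cell transcriptome therefore holds oocyte RNA that is still being cleared, short-lived 2-cell transcripts, and a rising body of embryonic transcripts that includes those for ribosome production.

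The 3′ ends of 4 transcripts are shown first, because oocyte transcripts were mostly higher in G&N (below) and such transcripts often carry the cytoplasmic polyadenylation element TTTTAT, through which CPEB proteins act in oocytes. Of the 12 oocyte transcripts called higher in G&N, they are all that hold these letters in the last 100 bases of the canonical transcript. They are printed 5′ to 3′ on the RNA strand as DNA letters in a window of 30 bases of GRCm39. Capitals mark the letters TTTTAT, which were not shown to act as the element, and in Zbed3 they stand 8 bases from the transcript's end. The windows are chr9:51031097-51031126 (+) for Btg4, chr13:65324942-65324971 (-) for Nlrp4f, chr13:95474320-95474349 (+) for Zbed3 and chr9:78219298-78219327 (-) for Omt2a.
Btg4: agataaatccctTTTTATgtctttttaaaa
Nlrp4f: tgctgttttgtgTTTTATattaaagaatag
Zbed3: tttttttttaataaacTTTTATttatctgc
Omt2a: gggttttaacggTTTTATaataaataaaag

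The letters TTTTAT stood in the last 100 bases on the RNA strand in 8 of 40 oocyte transcripts tested, in 99 of 505 genes called higher in G&N (19.6%), in 40 of 367 called lower (10.9%) and in 2065 of 18853 tested genes with a sequence (10.95%). On the other strand, where they read ATAAAA and overlap the polyadenylation signal, the shares were 42.5% of the oocyte transcripts (17 of 40), 30.3% of the genes called higher, 28.1% of those called lower and 26.1% of all. These shares describe letters in a window and are no measure of binding.

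The 4 libraries held 22200357 and 32012136 counts for WT and 33656717 and 44448857 for G&N, and the 14 libraries 20350427 to 61275465. A count was found for 20144 and 20465 genes in WT and for 21863 and 22169 in G&N, and after thinning all 4 to 22200357 counts for 20144, 20266, 21568 and 21669. Across 25041 genes (log2 of CPM, counts scaled to the library size, plus 1), Pearson's r was 0.951 between the WT replicates, 0.950 between the G&N replicates and 0.882 to 0.913 between the groups. G&N libraries correlated at 0.930 to 0.940 with late G&N-L and G&N-L+Lac-CoA libraries, while WT libraries correlated at 0.918 to 0.947 with H3K18R. Across these pairs, r was 0.900 to 0.933 for G&N with H3K18R. For WT it was 0.831 to 0.862 with late G&N-L and 0.873 to 0.903 with G&N-L+Lac-CoA. The summed level of 9 markers of the 2-cell embryo was 2727 to 3042 CPM in WT and 2417 to 2811 in G&N, against 211 to 306 in the early libraries, so that both groups expressed the markers of their labelled stage. Labels and methods name 3 replicates a group, and 2 were in the count table.

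Of 18986 genes tested, 509 were called higher in G&N (2.68%) and 368 lower (1.94%), or 4.62% in all, by edgeR's quasi-likelihood test at an adjusted p under 0.05. All log2 fold changes are G&N minus WT. The median over all tested genes was 0.16, and 875 of the 877 called genes differed by at least 1 on the log2 scale. The adjusted p of the called genes lay between 0.0413 and 0.0499, just inside the threshold, although 5312 genes (28%) had an unadjusted p under 0.05. With 2 libraries a group these calls were fragile. No gene was called without WT replicate 1, without WT replicate 2 or without G&N replicate 1, and 130 higher and 305 lower were called without G&N replicate 2, whereas DESeq2 called 2131 higher (11.2%) and 2020 lower (10.6%). DESeq2's calls included all 877. Separate cultures are not stated for the replicates, so that the p-values measure the spread between these libraries.

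Transcripts known from the oocyte were mostly higher in G&N. Of 40 oocyte transcripts tested, 37 were higher in G&N and 3 lower, 12 were called higher, against 2.68% of all genes tested, and none lower, and the median log2 fold change was 1.53 against 0.16 for all genes. Of the list, 20 fell and 1 rose from the early to the late 2-cell stage in the other libraries, and stored RNA and RNA made by the embryo cannot be told apart in these counts. Fewer embryos or cells with a transcript and less of it per cell cannot be told apart in these pooled embryos. Their summed level was 28037 and 30079 normalised CPM in WT and 63213 and 64251 in G&N, so that the groups did not overlap. By gene, the libraries did not overlap in 31 of the 40 with G&N higher and in 1 with WT higher, against 33.3% and 27.3% of all genes tested.

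Btg4, an adaptor of the CCR4-NOT deadenylase that takes part in clearing maternal mRNA, had normalised levels of 1315 and 1321 CPM in WT and 7739 and 8764 in G&N. Both G&N libraries stood far above both WT libraries, and the log2 fold change was 2.65 ± 0.17 (SE), or 6.26-fold. Nlrp4f, an oocyte member of the NLRP family, had 227 and 179 CPM in WT and 1865 and 1813 in G&N (3.18 ± 0.21 on the log2 scale). Nlrp9b had 19.8 and 21.9 CPM in WT and 171 and 192 in G&N (3.12 ± 0.24), and Nlrp9a 107 and 81.8 against 620 and 907 (3.02 ± 0.29). These NLRP genes lie in families of near-identical copies, and how reads were divided among the copies is uncertain. In H3K18R, also without inhibitor, Btg4 had 1387 and 4148 CPM of the library total and Nlrp4f 306 and 848. Nlrp9b had 10.9 and 90.3 there and Nlrp9a 160 and 368. For each of these genes H3K18R replicate 2 lay between the WT and the G&N libraries.

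The secreted oocyte factor Bmp15 had 454 and 315 CPM in WT and 1656 and 1600 in G&N (2.08 ± 0.24). Bcl2l10, an oocyte member of the BCL2 family, had 325 and 232 CPM in WT and 1242 and 1074 in G&N (2.06 ± 0.24). Each of these transcripts was several times higher in both G&N libraries, with no overlap. Omt2a, the most modest of the called members, had 7617 and 8175 CPM in WT and 14916 and 15043 in G&N (0.92 ± 0.15). The remaining called members were Oosp1, Nlrp14, Zfp57, Zbed3 and Nobox. Zfp57 keeps imprints, Nobox is a transcription factor of the oocyte and Zbed3 belongs to the subcortical maternal complex.

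The list did not move as one. Within the subcortical maternal complex, 1 of 7 members was called, and Nlrp5 had 53.5 and 28.2 CPM in WT and 141 and 199 in G&N (adjusted p 0.0542) whereas Tle6 had 18.5 and 17.7 against 23.96 and 15.5. Zp3, which encodes a protein of the zona pellucida, went the other way without a call, with 117 and 159 CPM in WT and 59.6 and 62.1 in G&N (log2 fold change -1.18 ± 0.25, adjusted p 0.0633). Leaving out WT replicate 1, WT replicate 2 or G&N replicate 1 left none of the 12 calls, and leaving out G&N replicate 2 left 9 members called, while the median stayed between 1.30 and 1.75.

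**Figure D1:**
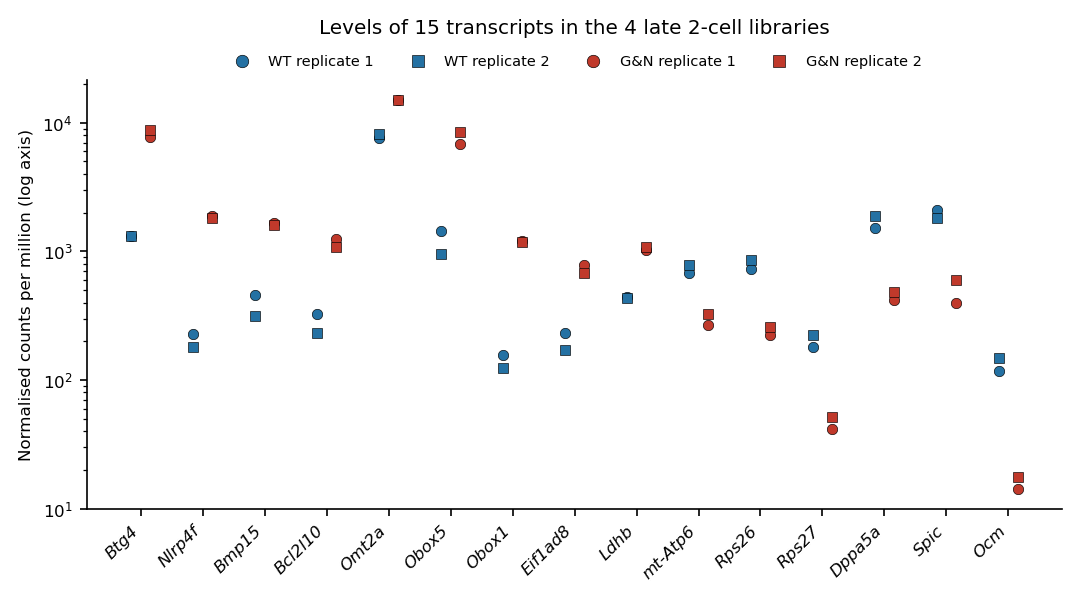
Normalised CPM (log axis) of 15 transcripts in each of the 4 libraries, with WT in blue, G&N in red, replicate 1 as circles and replicate 2 as squares. For each transcript the libraries of a group lie together and apart from those of the other group, G&N above WT from Btg4 to Ldhb and below WT from mt-Atp6 to Ocm.

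Other genes higher in G&N with the smallest p-values belonged to no list. Psenen, a subunit of γ-secretase, had 13.1 and 13.5 CPM in WT and 246 and 250 in G&N, and its log2 fold change of 4.22 ± 0.23 came with the smallest p of all genes. Rfpl4, an oocyte ring finger protein, had 365 and 308 CPM in WT and 2325 and 2065 in G&N (2.71 ± 0.20). Kpna7, the importin α of oocytes and early embryos, had 18.6 and 14.5 CPM in WT and 170 and 200 in G&N (3.49 ± 0.27). The other such genes were Zc3h6, Pla2g4c, Selenow, Mphosph6, a protein of the RNA exosome, and Dync1i2, with log2 fold changes of 2.15 to 3.40.

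The 2-cell program, the set of transcripts that mark genome activation, went both ways. Of 45 members tested, 24 were higher and 21 lower in G&N, 6 were called higher and 4 lower, against 2.68% and 1.94% of all genes, and the median log2 fold change was 0.32. The homeobox genes Obox1, Obox2 and Obox5 were called higher, and of these Obox5 had 1447 and 960 CPM in WT and 6882 and 8499 in G&N (2.68 ± 0.27). Obox1 had 155 and 123 CPM in WT and 1211 and 1176 in G&N (3.101 ± 0.215). Obox1 and Obox2 were among the genes that fell from the early to the late 2-cell stage in the other libraries, and Obox genes are also present in oocytes. Eif1ad8, Usp17lc and Tdpoz3, which belong to multi-copy families switched on in the 2-cell embryo, were called higher too, Eif1ad8 with 231 and 170 CPM in WT and 789 and 674 in G&N (1.87 ± 0.24).

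Called lower in G&N were Dppa5a, Crxos, Spic and Eif1a. Dppa5a, a pluripotency-associated RNA-binding protein, had 1519 and 1896 CPM in WT and 418 and 486 in G&N (-1.92 ± 0.21). Spic, an ETS transcription factor, had 2108 and 1817 CPM in WT and 399 and 600 in G&N (-1.97 ± 0.26). All 4 rose from the early to the late 2-cell stage in the other libraries. Dppa2 and Dppa4, activators of 2-cell genes, and Obox6 had log2 fold changes of -1.25, -1.26 and -1.20 with adjusted p of 0.0521, 0.0572 and 0.0567, and were not called. Of the 6 Zscan4 genes tested none was called, and Zscan4d had 557 and 248 CPM in WT and 721 and 787 in G&N. Reads of the Zscan4, Obox, Usp17l and Tdpoz copies may be split among near-identical genes.

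Transcripts for ribosomal proteins were lower in G&N almost throughout. Of 79 tested, 78 were lower in G&N and 1 higher, 39 were called lower, against 1.94% of all genes tested, and none higher, and the median log2 fold change was -1.45. WT lay above G&N without overlap in 77, against 27.3% of all genes. Their summed level was 21223 and 24156 normalised CPM in WT and 8061 and 9802 in G&N. All 33 of the small subunit were lower, with 22 called, and 45 of 46 of the large subunit, with 17 called. The exception was Rpl17, with 46.3 and 53.1 CPM in WT and 62.0 and 64.9 in G&N (log2 fold change 0.35 ± 0.25, adjusted p 0.434).

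Rps27 had 181 and 223 CPM in WT and 41.4 and 51.3 in G&N (-2.12 ± 0.25). Rps26 had 727 and 856 CPM in WT and 224 and 260 in G&N (-1.71 ± 0.20). Both are proteins of the small subunit, as are Rps7 and Rps15, the next by p, with -1.91 ± 0.23 and -1.70 ± 0.21. Ribosomal protein genes have many processed copies in the genome, to which some of their reads can go. The 1343 processed pseudogenes tested had a median log2 fold change of -0.39, against 0.20 for 13629 protein-coding genes. None of the 39 calls was left without WT replicate 1, WT replicate 2 or G&N replicate 1, and 22 members were called without G&N replicate 2, but 78 of 79 were lower in each of these fits.

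As a share of all counts, ribosomal protein transcripts took 2.17% and 2.41% in WT, 1.90% and 1.25% in H3K18R, 0.814% and 0.945% in G&N, 0.883% and 1.01% in G&N-L+Lac-CoA, 0.483% and 0.450% in late G&N-L, and 0.127% to 0.184% in the early libraries. Both WT libraries had the highest shares of the 14. Of the 79 genes, 49 rose from the early to the late 2-cell stage in the other libraries.

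Factors that assemble ribosomes in the nucleolus showed the same direction with fewer calls. Of 45 tested, 41 were lower in G&N and 4 higher, against 45.7% and 54.3% of all genes, and the median log2 fold change was -0.96. By edgeR, Nhp2 and Ddx10 were called lower, against 1.94% of all genes. DESeq2 called 25 lower and none higher, against 10.6% and 11.2% of all genes. Nhp2, a core protein of H/ACA snoRNPs, had 750 and 894 CPM in WT and 315 and 313 in G&N (-1.39 ± 0.19). Ddx10, an RNA helicase, had 103 and 97.0 CPM in WT and 12.1 and 20.2 in G&N (-2.63 ± 0.35).

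**Figure D2:**
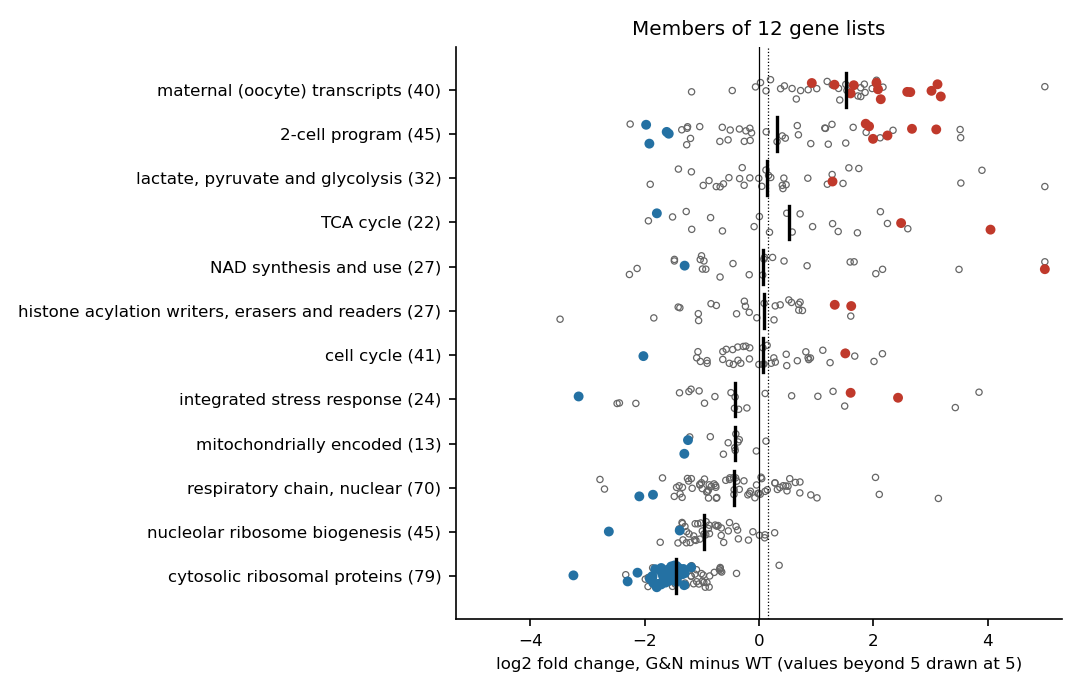
Log2 fold change (G&N minus WT) of the tested members of 12 gene lists, with the number tested in brackets, called members filled in red (higher) or blue (lower), others open, the list's median as a black bar and the median of all genes as a dotted line. Oocyte transcripts lie mostly right of 0 and ribosomal proteins almost all left of it, while the 2-cell program holds called members on both sides.

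Mitochondrial RNA also took a smaller share of the G&N libraries. All mitochondrial genes, ribosomal RNA included, made up 10.6% and 11.2% of counts in WT and 6.77% and 6.84% in G&N, beside 11.7% and 12.2% in H3K18R and 5.65% to 6.50% in the other late inhibitor-treated libraries. Of 13 mitochondrially encoded proteins, 12 were lower in G&N, 2 were called lower, against 1.94% of all genes, and none higher, and the median log2 fold change was -0.42. The calls were mt-Cytb, of complex III, with 54176 and 57703 CPM in WT and 19885 and 27422 in G&N (-1.24 ± 0.21), and mt-Atp6, of ATP synthase, with 678 and 781 against 266 and 324 (-1.31 ± 0.21). The rest differed less. mt-Co1, of complex IV, had 7427 and 8156 CPM in WT and 8653 and 8310 in G&N (0.12 ± 0.16, adjusted p 0.699).

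Of 70 nuclear genes of the respiratory chain and ATP synthase, 48 were lower and 22 higher in G&N (median -0.44), with 2 called lower, near the 1.94% of all genes, and none higher. DESeq2 called 18 lower and 1 higher, against 10.6% and 11.2% of all genes. Cox7c, of complex IV, had 114 and 131 CPM in WT and 22.9 and 34.5 in G&N (-2.09 ± 0.30), and Atp5j, of ATP synthase, 97.5 and 105 against 22.3 and 33.7 (-1.85 ± 0.30). Among the 37 genes of complex I, 21 were lower and 16 higher (median -0.15), and none was called. Lower in G&N were 9 of 10 genes of complex III (median -0.95), 8 of 10 of complex IV (-0.59) and 10 of 13 of ATP synthase (-0.51).

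Of the 4 lactate dehydrogenase genes tested, 1 was called. Ldhb, which encodes the main lactate dehydrogenase subunit of the mouse oocyte and early embryo, had 439 and 433 CPM in WT and 1025 and 1088 in G&N (1.28 ± 0.17) and was called higher. It fell from the early to the late 2-cell stage in the other libraries. Ldha had 17.9 and 16.2 CPM in WT and 8.74 and 13.4 in G&N (-0.62 ± 0.44, adjusted p 0.443), and Ldhc, the testis form, 34.8 and 48.7 against 8.86 and 13.5 (-1.90 ± 0.40, adjusted p 0.0622). Ldhd, which acts on D-lactate, was near the floor in WT, with 3 and 0 counts, and had 112 and 51 counts in G&N (adjusted p 0.194). By edgeR, Ldhb was the only call among 32 genes of lactate, pyruvate and glucose metabolism, near the 2.68% of all genes called higher. Of the 32, 18 were higher and 14 lower, with 11 at an unadjusted p under 0.05 by edgeR. DESeq2 called 5 higher and 5 lower, against 11.2% and 10.6% of all genes. Of the carriers, Slc16a1, a lactate and pyruvate transporter, had 33.8 and 27.6 CPM in WT and 46.8 and 35.3 in G&N (adjusted p 0.469).

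In the TCA cycle list, which also holds the cytosolic enzyme Idh1, 14 of 22 genes were higher and 8 lower. By edgeR 2 were called higher and 1 lower, against 2.68% and 1.94% of all genes. Suclg2, a subunit of succinyl-CoA synthetase, had 21.8 and 13.3 CPM in WT and 90.3 and 107 in G&N (2.49 ± 0.35). Idh1, the cytosolic isocitrate dehydrogenase that makes NADPH, had 2.03 and 0.939 CPM in WT and 17.8 and 31.0 in G&N (4.05 ± 0.66). Ogdh, of the oxoglutarate dehydrogenase complex, was lower, with 84.2 and 82.6 CPM in WT and 19.2 and 29.2 in G&N (-1.79 ± 0.31).

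NAD-related genes were split, 14 higher and 13 lower of 27, with 1 call each way, near the 2.68% and 1.94% of all genes. With DESeq2 12 were higher and 15 lower. Slc12a8, for which NMN transport has been described, had no count in either WT library and 358 and 220 counts in G&N. It was at least 137-fold higher when WT is set to a floor of 3 counts over both libraries together. Sirt1, an NAD-dependent deacetylase, had 356 and 355 CPM in WT and 149 and 140 in G&N (-1.30 ± 0.19) and was called lower. Nampt, which makes NMN, had 110 and 95.5 CPM in WT and 55.9 and 47.6 in G&N (-0.99 ± 0.24, adjusted p 0.078), and Nmnat1, which turns NMN into NAD, 53.2 and 60.2 against 35.4 and 47.4 (adjusted p 0.381).

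The H3 genes, whose wild-type mRNA was injected into the WT group, gave no edgeR call among the 5 tested of 14. Of the 5, 1 had an unadjusted p under 0.05 by edgeR. DESeq2 gave 1 call, lower, against 10.6% of all genes. H3f3b, 1 of the 2 genes for H3.3, had 5289 and 5151 CPM in WT and 3903 and 4791 in G&N (-0.26 ± 0.18, adjusted p 0.423), and H3f3a 823 and 853 against 455 and 575 (-0.70 ± 0.20, adjusted p 0.0995). The 12 genes for H3.1 or H3.2, of which 3 were tested, summed to 4.45 and 4.13 CPM in WT and 7.51 and 9.70 in G&N. The count table gives no way to separate reads of injected from those of endogenous mRNA. Of 27 enzymes and readers of histone acylation, 14 were higher and 13 lower. By edgeR the readers Brdt and Mllt3 were called higher, against 2.68% of all genes, and none lower. DESeq2 called 2 of the 27 higher and 3 lower, against 11.2% and 10.6% of all genes. Brdt, a bromodomain protein of the germ line, had 1343 and 1161 CPM in WT and 2814 and 3459 in G&N (1.33 ± 0.20), and Mllt3 304 and 232 against 939 and 702 (1.61 ± 0.25). The acetyltransferase Ep300 had 89.1 and 107 CPM in WT and 95.3 and 79.0 in G&N (adjusted p 0.723).

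Stress responses showed no common direction. In the integrated stress response 9 of 24 genes were higher and 15 lower. Shmt2 and Slc3a2, a mitochondrial enzyme of one-carbon metabolism and an amino acid transporter chain, were called higher, against 2.68% of all genes. The stress-induced nuclear protein Nupr1 was called lower, against 1.94%. DESeq2 called 4 of the 24 higher and 6 lower, against 11.2% and 10.6% of all genes. Nupr1 had 76.7 and 180 CPM in WT and 14.9 and 13.9 in G&N (-3.15 ± 0.47). Of 31 genes of heat shock and oxidative stress, 19 were higher and 12 lower. Only Hspe1, a mitochondrial chaperonin, was called higher, near the 2.68% of all genes, at 58.3 and 61.5 against 156 and 132 CPM (1.27 ± 0.22). DESeq2 called 5 of the 31 higher and 5 lower, against 11.2% and 10.6% of all genes. Among 21 genes of the interferon response and RNA sensing, 13 were higher and 8 lower, and 1 was called higher, against 2.68% of all genes. It was Ddx58, the RNA sensor RIG-I, with 5.68 and 7.10 CPM in WT and 42.8 and 48.1 in G&N (2.83 ± 0.35). DESeq2 called 1 of the 21 higher and none lower, against 11.2% and 10.6% of all genes. By edgeR none of 21 p53 targets was called (11 higher and 10 lower, with 5 at an unadjusted p under 0.05). DESeq2 put 9 higher and 12 lower, and called 2 each way, against 11.2% and 10.6% of all genes. Cdkn1a, the cell cycle inhibitor p21, had 6.21 and 7.89 CPM in WT and 23.4 and 32.8 in G&N (adjusted p 0.0613).

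Of 41 cell cycle genes, 21 were higher and 20 lower, or 20 and 21 with DESeq2. By edgeR 1 was called each way, near the 2.68% and 1.94% of all genes, while DESeq2 called 4 higher and 5 lower. Wee2, the oocyte kinase that inhibits CDK1, was called higher, with 229 and 209 CPM in WT and 706 and 540 in G&N (1.51 ± 0.22). Cdk2 was called lower, with 79.8 and 73.9 CPM in WT and 21.4 and 16.5 in G&N (-2.02 ± 0.28). By edgeR no gene was called among 21 of pluripotency and the first lineages (13 higher and 8 lower, 5 at an unadjusted p under 0.05), where DESeq2 called 1 higher and 4 lower. Nor was one called by edgeR among 19 histone lysine demethylases (10 higher and 9 lower, 8 at an unadjusted p under 0.05), where DESeq2 called 2 higher and 3 lower. Over all genes DESeq2 called 11.2% higher and 10.6% lower, the background of its counts in these lists and in the cell cycle list.

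The smallest p-values among genes lower in G&N fell on Mup3, Ocm, Polr1h, Tomm5, Dnajc15, Platr25, Atg3, Eif3e, Riox2, Glrx2, Slc25a44 and Jmy. Ocm, the calcium-binding protein oncomodulin, had 118 and 147 CPM in WT and 14.2 and 17.5 in G&N (-3.06 ± 0.28). Polr1h, a subunit of RNA polymerase I, had 463 and 446 CPM in WT and 79.9 and 99.8 in G&N (-2.34 ± 0.22). Tomm5, of the mitochondrial import pore, had 518 and 630 CPM in WT and 117 and 131 in G&N (-2.22 ± 0.21), and Eif3e, of the translation initiation factor eIF3, 372 and 377 against 85.1 and 101 (-2.01 ± 0.21). Mup3 is described with the transcripts missing from 1 group, and the log2 fold changes of the other 7 ran from -2.67 for Platr25 to -2.18 for Slc25a44.

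Some transcripts were found in 1 group only, and their fold changes are bounds against 3 counts over both libraries of the other group together. Mup3, a major urinary protein of a multi-copy family, had 698 and 859 counts in WT and none in G&N, at least 730-fold lower, and outside WT it was found only in H3K18R replicate 1 and late G&N-L replicate 1. Cybc1, Nxf3 and Gamt had 109 to 275 counts in the WT libraries and none in G&N, at least 222-fold, 147-fold and 147-fold lower. In the other direction Atp10a, Mapk1ip1, Hey2 and Obox4-ps31 had no count in WT and 252 to 651 in G&N, and were at least 209-fold to 233-fold higher. Libraries of 5 embryos can miss or gain a transcript through single embryos, and which of these differences are of that kind was not tested.

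The position of the groups between the stages was read with genes that the 4 libraries had no part in choosing. With the early libraries set against the late G&N-L and G&N-L+Lac-CoA libraries, 2907 genes rose and 1994 fell between the stages by at least 1 on the log2 scale at an adjusted p under 0.05. The risen genes had a median level of 4.28 and 4.39 (log2 CPM) in WT and 3.84 and 3.93 in G&N, and -0.97 to -0.13 in the early libraries. The fallen genes had 3.68 and 3.41 in WT and 4.28 and 4.41 in G&N, and 5.71 to 6.11 in the early libraries. On both scales each G&N library lay nearer to the early libraries than either WT library did, and far from them. All early libraries and all libraries that chose these genes were treated with Gne140 and NMN, as G&N was and WT was not. A difference in stage therefore cannot be told apart here from shared treatment or experiment.

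Gene by gene, 1881 of the 2846 risen genes tested were lower in G&N and 965 higher (median -0.48), and 191 were called lower (6.71%, against 1.94% of all genes) and 23 higher (0.808%, against 2.68%). Of the 1927 fallen genes tested, 1407 were higher in G&N and 520 lower, with a median of 0.76, and 159 were called higher (8.25%) and 14 lower (0.727%). Seen from the calls, 51.9% of the genes called lower in G&N had risen between the stages and 31.2% of those called higher had fallen, against 15% and 10.1% of all genes tested. The medians kept their signs without each library in turn, at -0.68 to -0.39 and 0.62 to 0.88. By this rule 64.2% of the genes called higher and 41% of those called lower had neither risen nor fallen between the stages.

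**Figure D3:**
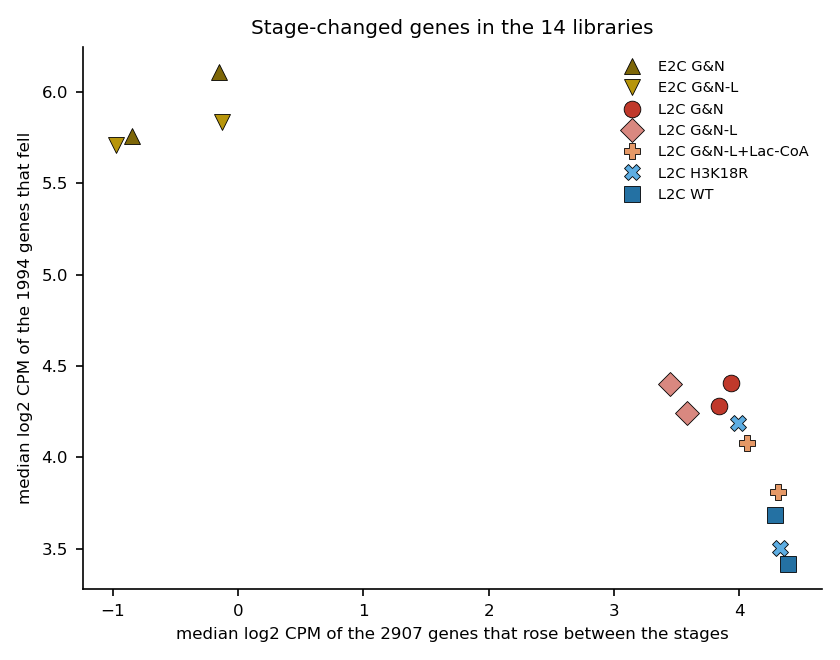
Median log2 CPM of the 2907 genes that rose (horizontal) and of the 1994 genes that fell (vertical) from the early to the late 2-cell stage, 1 point for each of the 14 libraries. Early libraries lie top left, both WT libraries at the bottom right and both G&N libraries between late G&N-L and WT along the horizontal axis, and H3K18R replicate 2 lies near G&N-L+Lac-CoA rather than near H3K18R replicate 1.

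G&N-L+Lac-CoA and H3K18R embryos offered a second pair of groups with no library in common with the first, again with inhibitor and NMN on 1 side. Both groups were injected per the study, with lactyl-CoA or with mutant histone mRNA, so that the pair does not repeat the contrast in injection. They differ further in lactate. The difference in experiment was repeated on the same sides, since the study compared H3K18R with WT and G&N-L+Lac-CoA with G&N-L. Inhibitor, NMN and experiment therefore cannot be told apart here either. In that comparison edgeR called none of 18977 genes (0%, smallest adjusted p 0.324), with an unadjusted p under 0.05 for 2449 (12.9%), and DESeq2 called 405 higher and 576 lower. Over the 17108 genes tested in both, log2 fold changes had a Pearson's r of 0.310 and a Spearman's rho of 0.452, across genes, which are not independent replicates.

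The genes called in G&N against WT mostly had the same direction there. Of the 509 called higher, 466 (91.6%) were also higher in G&N-L+Lac-CoA than in H3K18R, and of 365 called lower, 355 (97.3%) were lower, against 68.3% of genes not called. Genes not called include those with changes near 0, whose sign can fall either way, so these shares are not like for like. Of the called genes, 317 had an unadjusted p under 0.05 in the second comparison with the same sign and none with the other sign. Of the 16234 genes not called, 1472 had one with the same sign and 302 with the other. Ribosomal proteins were lower in G&N-L+Lac-CoA in 76 of 79 genes (median -0.98), mitochondrially encoded proteins in 13 of 13 (-1.50) and oocyte transcripts higher in 31 of 40 (0.65). The genes that rose or fell between the stages had medians near 0 there, at -0.004 and 0.04. The G&N-L+Lac-CoA libraries had a part in choosing those genes, so these medians are not free of selection. With risen and fallen genes chosen from early and late G&N-L embryos only, the medians were -0.002 and -0.06. Single libraries weighed on the shared direction of the called genes and on r. Without H3K18R replicate 1 the same sign was found for 710 of 875 called genes and r was 0.196, and without G&N-L+Lac-CoA replicate 1 for 782 of 876 with an r of 0.194. Without H3K18R replicate 2 it was found for 848 of 875 with an r of 0.335, and without G&N-L+Lac-CoA replicate 2 for 841 of 876 with 0.271.

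**Figure D4:**
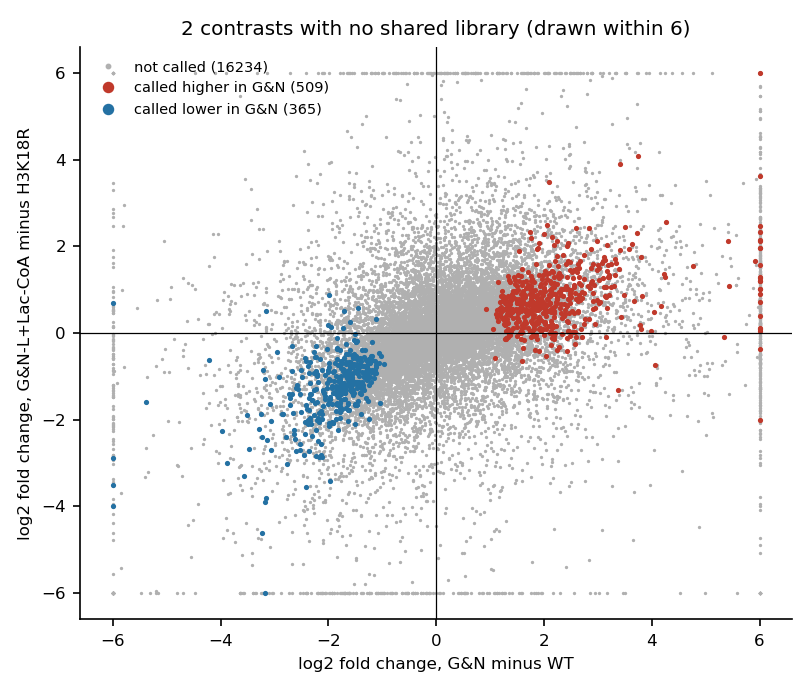
Log2 fold change of G&N-L+Lac-CoA minus H3K18R against that of G&N minus WT, 1 point a gene, values beyond 6 drawn at 6, for genes called higher (red, 509) or lower (blue, 365) in G&N against WT and for the rest (grey, 16234). Red points lie mostly above 0 and blue points mostly below it, within a cloud of other genes that spreads in all directions.

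Markers of other cells gave no edgeR call. Of 3 tested cumulus or granulosa genes, 4 of sperm and spermatids, 6 of blood and epithelium and 6 Y-linked genes none passed edgeR's test, with 2, 0, 1 and 1 at an unadjusted p under 0.05. DESeq2 called 1 cumulus or granulosa gene higher and 1 lower and 1 gene of blood and epithelium lower. Over all genes it called 11.2% higher and 10.6% lower. The sum of 8 cumulus markers was 12.6 to 25.9 CPM in WT and 5.32 to 14.7 in G&N, with Has2, Foxl2, Amh and Cyp11a1 at 0 in all 4 libraries. Blood markers summed to 17.6 to 36.6 CPM in WT and 31.2 to 36.2 in G&N, nearly all from Hba-a1, and sperm markers to 2.75 to 3.38 and 4.22 to 5.31. The 4 markers of oviduct epithelium summed to 343 to 367 CPM in WT and 130 to 213 in G&N. Nearly all of this was Epcam (328 and 362 against 129 and 206 CPM, adjusted p 0.0917), which rose from the early to the late 2-cell stage in the other libraries.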

How the data were processed

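RNA-seq libraries of 5 embryos each were compared between late 2-cell G&N and WT embryos. The deposited values are raw gene counts, made by the authors with FastQC, Trim Galore, HISAT2 on mm39 and featureCounts (versions and strand setting not given in the sources used here). Count columns named K18A were read as the H3K18R samples. GENCODE vM39 (GRCm39) matched 56236 of 56923 gene identifiers (98.8%).

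Genes kept by filterByExpr were fitted on the 4 libraries with edgeR 4.0.16 (TMM, quasi-likelihood F-test, two-sided, Benjamini-Hochberg) in R 4.3.3, and called at an adjusted p under 0.05. The SE is the log2 coefficient divided by the square root of F. Levels are TMM-normalised CPM, and those across 14 libraries log2 CPM with a prior count of 2. Single-gene exact permutation tests of 2 against 2 cannot go below 0.333. The fit was also run on simulated data, and the outcome is not given here. Alternatives were DESeq2 1.42.0, other scalings, filters, fits, call rules, thinning, a replicate block and leaving out each library. Replicate numbers did not pair the libraries (correlation of deviations 0.01).

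The members and gene lists were chosen with earlier results of these data known. Named genes were the 12 smallest p-values each way among called genes with a symbol that is no predicted model and no overlap between groups, up to 4 called each way from a list (otherwise its 2 smallest p-values, some given only in counts), the check genes Ldha, Ldhb and H3 genes, and the 4 largest fold changes each way. Other list members were named for their role after their values were seen.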

Additional observations from a re-analysis of the deposited data

How the results depend on the processing

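The number of calls depended strongly on the processing, while none of the 8 medians recomputed (risen, fallen and 6 gene lists, below) changed sign in the alternatives run. Genes called higher (509) and lower (368) became 2131 and 2020 with DESeq2, 2050 and 1618 without a filter, 1509 and 1462 with at least 10 counts in every library, and 2961 and 2347 with the rule of p below 0.05 before adjustment and a change beyond 0.5 on the log2 scale. The higher calls became 324 with DESeq2's size factors, 928 in the fit of all 14 libraries and 806 in that of the 10 late 2-cell libraries, and the lower calls 574 after thinning. Leave-one-out counts ran from 0 to 130 (higher) and from 0 to 305 (lower); with 1 library in a group, it is assumed to vary like the other group. The replicate block gave 438 and 366 calls, with 376 and 280 shared. For G&N-L+Lac-CoA against H3K18R, the counts of 0 became 405 and 576 with DESeq2 and 5 and 18 in the fit of all 14 libraries, and leaving out 1 library gave at most 0 and 1; the block gave 0 and 0. The cause of these shifts was not tested.

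Leave-one-out medians of the log2 fold change were -0.68 to -0.39 for risen and 0.62 to 0.88 for fallen genes, 1.30 to 1.75 for oocyte transcripts, -1.68 to -1.31 for ribosomal proteins, -1.21 to -0.83 for nucleolar factors, -0.66 to -0.30 for the nuclear respiratory chain, -0.59 to -0.40 for mitochondrially encoded proteins and 0.28 to 0.41 for the 2-cell program. The fallen median was 0.51 with stage lists from G&N-L embryos. Scaling moved the median of all genes from 0.16 to 0.09 (DESeq2's size factors) or 0.13 (library totals). Mean r between the groups, 0.898, became 0.842 with log2(CPM + 0.1). Of 82 named genes only Krt18 changed sign, with the block (-1.31) and in the leave-one-out fits (-8.63 to 2.72). Called genes lost their call in 8 cases with DESeq2's size factors, 11 in the fit of all 14 libraries, 5 in that of the 10 late ones, 9 with the block, 64 in each fit without WT replicate 1, WT replicate 2 or G&N replicate 1, and 22 without G&N replicate 2. In lists near an even split the balance turned, as for NAD genes (14 higher and 13 lower, but 12 and 15 with DESeq2), acylation genes (12 and 15 without G&N replicate 1) and demethylases (8 and 11 without G&N replicate 2). The limits are 2 libraries a group and adjusted p-values close to the threshold.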

Other observations

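Xist, the non-coding RNA of X inactivation, had 86 and 3 counts in the WT libraries and none in either G&N library, too few to be tested. By gene type, 2677 long non-coding RNAs had a median log2 fold change of 0.27, with 52 called higher and 23 lower, against 2.68% and 1.94% of all genes. The 23 snoRNAs tested had a median of -0.87 with none called. Genes in the fifth with the shortest summed exons had a median log2 fold change of -0.05 and those in the fifth with the longest 0.36 (Spearman's rho across 18853 genes 0.07), and rho with GC content was -0.04.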
